A study of Mus musculus with 16 samples.

Results

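The mRNAs of 38 enzymes and carriers that take glucose to pyruvate, convert pyruvate to lactate, bring pyruvate into mitochondria and burn it in the citrate cycle were followed in single mouse two-cell embryos, among 24063 genes listed. The members were chosen by their symbols, for their place in these pathways, with earlier results of these data known. They were 14 enzymes of glycolysis, 2 lactate dehydrogenase subunits, 7 proteins of pyruvate entry and carboxylation, and 15 enzymes of the citrate cycle. Both groups of embryos had mothers homozygous for a Kdm1a allele whose first exon is floxed, and wild-type B6D2F1 fathers. KDM1A (LSD1) is a histone demethylase. Control f/wt embryos (8 libraries) had mothers without Cre, whereas the mothers of Δm/wt embryos (8 libraries) carried a Zp3-cre transgene, which is active in the growing oocyte, so these embryos lacked the maternal supply of KDM1A but kept the paternal allele. The labels give B6D2F1 as strain for both groups, but in the study's methods only the fathers are B6D2F1. The study describes the mice with Zp3-cre as of mixed genetic background, and gives no separate background for the mothers without Cre. The mothers of both groups were superovulated. The litters are not given, so p-values measure the spread between these embryos.

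Glycolysis splits glucose into pyruvate in the cytosol. Lactate dehydrogenase interconverts pyruvate and lactate, the mitochondrial pyruvate carrier imports pyruvate, and the pyruvate dehydrogenase complex turns it into acetyl-CoA, which citrate synthase feeds into the citrate cycle. Mouse embryos at the first cleavages are known to rely on pyruvate and lactate rather than on glucose, and the oocyte is known to hold much LDHB, the heart-type lactate dehydrogenase subunit. Malate dehydrogenase acts in the cytosol (MDH1) and in the mitochondrion (MDH2), and both isozymes take part in the malate-aspartate shuttle, which carries reducing equivalents across the inner mitochondrial membrane.

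Library depth was 3212510 to 9337451 gene counts in f/wt and 4049168 to 14334244 in Δm/wt. Libraries f/wt 2 and 3 were almost the same (the chi-square per gene averaged 1.89, whereas the other 55 pairs within a group gave 45.6 to 366) and were summed, leaving 7 f/wt and 8 Δm/wt samples. Library Δm/wt 8 had the fewest genes with a count, 11250. Kdm1a itself lay at 0.991 to 20.3 CPM in f/wt and 0 to 4.03 CPM in Δm/wt, with overlap (log2 fold change -2.99 ± 1.01, adjusted p = 0.0211), and these counts do not show whether a read came from the deleted exon or from the paternal allele. The 10 oocyte and early embryo markers, all detected in both groups, summed to 2654 to 5316 CPM (counts per 1000000 after TMM scaling) in f/wt and 11753 to 30567 CPM in Δm/wt, where 8 rose. The 8 two-cell markers were detected in both groups and summed to 232 to 2101 CPM in f/wt and 78.0 to 1359 CPM in Δm/wt. Of 12 myeloid markers, 10 rose; their sum was 3.12 to 27.5 CPM in f/wt, 15.5 to 28.8 CPM in Δm/wt 1 to 3 and 211 to 2079 CPM in Δm/wt 4 to 8. The 12 cumulus and granulosa markers summed to 0.867 to 26.7 CPM in f/wt and 30.4 to 159 CPM in Δm/wt, with Amh, Fshr, Foxl2, Ptx3 and Inhba at 0 in both. Of the 3 tested, Cyp19a1 (aromatase) rose from 0.150 to 77.1 CPM, whereas Star and Kitl were not called. Red blood cell markers summed to at most 1.96 CPM. The part of these markers in the results below was not tested; the counts of members and of neighbouring genes called are also given without Δm/wt 4 to 8. Less RNA from a cell type and fewer cells of it cannot be told apart in such samples.

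Enzymes of 1 pathway moved in opposite directions between the groups. Of the 36 members tested, 10 were higher in Δm/wt (27.8%, against 21.9% of all 11344 genes tested) and 6 were lower (16.7%, against 22.8%), at an adjusted p under 0.05 in edgeR. The groups did not overlap in 8 members (22.2%, against 16.2% of all genes), 4 higher and 4 lower in Δm/wt. These shares lay near the background. The members' median log2 fold change was -0.44 (all genes 0.04) with a median absolute value of 1.29 (all genes 1.60). The roles differed in their counts, but this difference was not tested. In the citrate cycle 6 of 15 rose and 1 fell (median log2 fold change 1.22), in glycolysis 1 of 12 tested rose and 2 fell (median -0.84), and in pyruvate entry and carboxylation 2 of 7 rose and 3 fell. The counts by role also differed between sets of embryos, which was not tested either. In embryos 1 to 3 alone 5 citrate cycle genes rose and 4 fell (15.1% and 17.2% of all genes did). In embryos 4 to 8 alone these counts were 3 and 1 (12.9% and 15.2% of all genes). For glycolysis these counts were 0 and 0, then 1 and 1. For pyruvate entry and carboxylation they were 1 and 2, then 1 and 3. Among the 16 called members the direction was the same in all settings tried except for Pkm in embryos 1 to 3. The split between rises and falls depended on scaling. It was 5 and 11 with library totals (all genes 1892 and 3116) and 13 and 3 relative to the study's qPCR reference genes Hprt, Gapdh and Ppia (all genes 3636 and 1446). With these 2 scalings all genes together had median log2 fold changes of -0.32 and 0.86. Without f/wt 2 and 3, or without f/wt 4, 6 members rose. Against all f/wt samples, Δm/wt 1 to 3 alone kept 8 of the 16 calls and the direction of all 16. There 4 members rose and 5 fell (11.3% and 17.8% of all genes): 2 and 2 of the citrate cycle, 1 and 3 of pyruvate entry and carboxylation, 0 and 0 of glycolysis, and Ldhb. Without Δm/wt 8, 14 calls were kept.

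**Figure D1:**
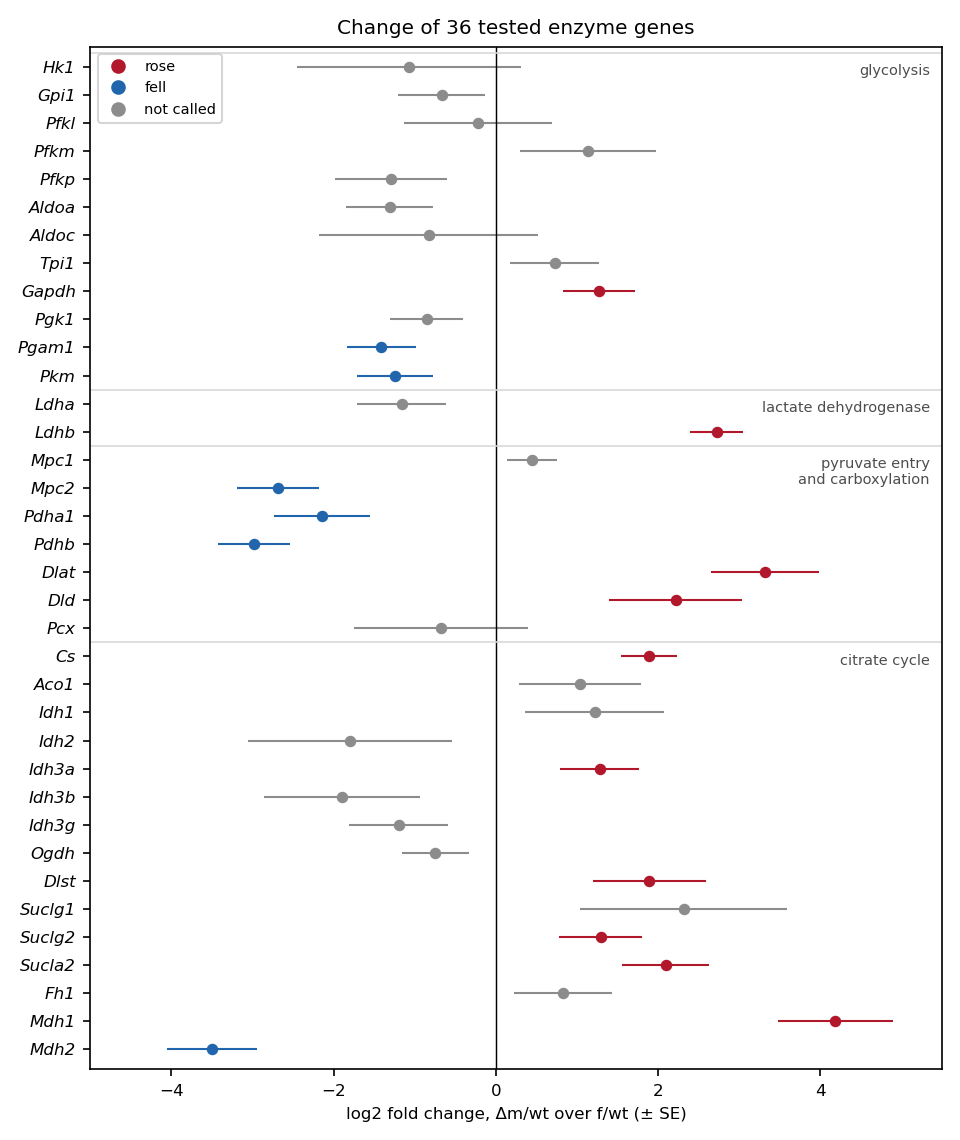
Log2 fold change of Δm/wt over f/wt (horizontal axis, points, with the standard error as bars) for the 36 members tested, ordered by role; red marks genes that rose, blue genes that fell and grey genes not called. Citrate cycle genes are 15 of the 36 tested and hold 6 of the 10 that rose (21.9% of all genes rose). The difference between roles was not tested. Mdh1 and Mdh2 stand at opposite ends, at 4.19 and -3.50.

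Promoter sequences of 4 members are printed because these genes carry the opposite changes described below: Mdh1 and Mdh2, which rose and fell most, Ldhb, the most abundant member per kb in Δm/wt, and Pdhb, which fell second most. Each is the 250 bases before the RefSeq start site on the gene's strand in GRCm38.p6 (RefSeq), 5′ to 3′. Capitals mark matches on either strand to the GC box, whose letters are GGGCGG, and to the CCAAT box, whose letters are its name, and in Mdh2 also to CTCGCGAG, letters picked after this sequence had been seen.
Mdh1, chr11:21571935-21572184, minus strand: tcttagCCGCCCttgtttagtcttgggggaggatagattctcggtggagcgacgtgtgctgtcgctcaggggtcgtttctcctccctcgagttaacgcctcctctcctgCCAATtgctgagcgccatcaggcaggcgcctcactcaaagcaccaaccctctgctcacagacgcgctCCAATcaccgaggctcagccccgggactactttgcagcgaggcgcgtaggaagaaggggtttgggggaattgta
Mdh2, chr5:135778399-135778648, plus strand: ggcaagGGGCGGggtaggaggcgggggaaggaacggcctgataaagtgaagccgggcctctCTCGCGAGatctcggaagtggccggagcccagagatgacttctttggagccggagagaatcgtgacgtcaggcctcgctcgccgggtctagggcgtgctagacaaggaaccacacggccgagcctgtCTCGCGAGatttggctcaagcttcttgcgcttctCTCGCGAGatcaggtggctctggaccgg
Ldhb, chr6:142507958-142508207, minus strand: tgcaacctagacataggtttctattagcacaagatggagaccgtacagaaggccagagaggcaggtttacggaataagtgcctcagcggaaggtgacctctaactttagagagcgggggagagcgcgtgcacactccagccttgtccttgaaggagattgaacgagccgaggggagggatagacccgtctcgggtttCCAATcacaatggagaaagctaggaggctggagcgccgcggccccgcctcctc
Pdhb, chr14:8172993-8173242, minus strand: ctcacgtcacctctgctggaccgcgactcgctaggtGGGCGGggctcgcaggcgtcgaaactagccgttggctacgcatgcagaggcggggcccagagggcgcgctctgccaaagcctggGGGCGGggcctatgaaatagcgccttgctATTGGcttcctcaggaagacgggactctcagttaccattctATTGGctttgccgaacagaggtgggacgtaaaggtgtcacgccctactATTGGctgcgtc
In these windows the GC box matched once or more in Mdh1, Mdh2 and Pdhb but not in Ldhb, and the CCAAT box in Mdh1, Ldhb and Pdhb but not in Mdh2. Of 37 members matched to the promoter table (Idh3a was not), 56 promoters were listed. The GC box was in 55.4% of them and in 32.7% of all 32851 promoters of the same length, the CCAAT box in 44.6% and 33.8%, the E-box CACGTG in 10.7% and 6.02%, and the TATA box TATAAA in 0 and 12.4%. CTCGCGAG occurred 3 times in the Mdh2 window, in no other member promoter, and in 0.761% of all promoters. Counted per gene, with a match in any of its promoters, 26 of 37 members had a GC box and 20 of 37 a CCAAT box. In this count, among the members that rose and were matched, 6 of 9 had a GC box and 5 of 9 a CCAAT box, against 4 of 6 and 3 of 6 of those that fell. These matches describe letters and were not tested as binding sites.

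Of the 12 glycolysis genes tested, 9 had log2 fold changes below 0, but only Pgam1 and Pkm among these passed, and the f/wt embryos differed widely among themselves. With scaling to the reference genes Gpi1, Pfkl and Pgk1 came to lie above 0. Phosphoglycerate mutase, Pgam1, which moves the phosphate of phosphoglycerate, fell from 175 ± 77.9 CPM (SD, n = 7) to 65.7 ± 38.8 CPM (n = 8). Its f/wt values ranged from 71.2 to 310 CPM (median 191) and its Δm/wt values from 23.1 to 121 CPM (median 46.8), so the groups overlapped. The log2 fold change was -1.41 ± 0.42 (SE; adjusted p = 0.0107). The call was lost relative to the reference genes (-0.48) in embryos 1 to 3 (-1.33) and 4 to 8 (-1.45) alone, and in Δm/wt 1 to 3 against all f/wt (-1.43).

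Pkm encodes pyruvate kinase, the enzyme of the last step, and fell from 406 ± 308 to 171 ± 77.9 CPM. It ranged from 87.3 to 889 CPM in f/wt (median 323) and from 36.8 to 309 CPM in Δm/wt (median 169). The 2 lowest f/wt samples, f/wt 1 and the summed f/wt 2 and 3, lay at 136 and 87.3 CPM, below most Δm/wt samples, and Δm/wt 8 was lowest of all. The log2 fold change was -1.24 ± 0.47 (adjusted p = 0.0366). The call was lost without f/wt 4, 6 or 7 (-1.23, -1.02 and -0.92) and without Δm/wt 2, 3, 5 or 8 (-1.20, -1.20, -1.25 and -1.09), with limma-voom (-0.94), and relative to the reference genes (-0.55). Keeping f/wt 2 and 3 separate (-1.09) also lost it, as did a term in the fit for embryos 1 and 2, 3, and 4 to 8 (-0.97). Of the Pkm windows 34.4% also occur in other genes, 7 of them pseudogenes.

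Gapdh, glyceraldehyde-3-phosphate dehydrogenase, was the 1 glycolytic gene that rose, from 149 ± 84.5 to 359 ± 272 CPM. It lay between 85.2 and 300.01 CPM in f/wt (median 102) and between 162 and 899 CPM in Δm/wt (median 238), with the highest values in Δm/wt 6 and 7. The log2 fold change was 1.27 ± 0.45 (adjusted p = 0.0257). The call was lost without f/wt 1, 4 or 8 (1.17, 1.18 and 1.00 on the log2 scale), without Δm/wt 6 or 7 (0.92 and 1.09), with library totals (0.95), without the filter on low counts (1.10), in embryos 1 to 3 alone (1.01), and in Δm/wt 1 to 3 against all f/wt (0.24). Of its 50-base windows 82.5% also occur in other genes, 213 of them pseudogenes, so reads could be lost or shared. By qPCR of single oocytes and embryos, another measure, the study found Hprt, Gapdh and Ppia at similar relative levels in controls and mutants. Gapdh is itself among the reference genes used for scaling here. The difference from the qPCR was not tested.

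The other abundant glycolytic genes did not pass. Pgk1, phosphoglycerate kinase, which makes ATP, had the highest mean per kb of the glycolytic genes in f/wt (260 CPM per kb). It lay at 64.5 to 912 CPM (median 567) in f/wt and 136 to 502 CPM (median 243) in Δm/wt, with a log2 fold change of -0.86 ± 0.45 (adjusted p = 0.127). It passed without f/wt 1 (-1.05) and with library totals (-1.10), and 68.0% of its windows were shared with other genes. Aldoa, the muscle-type aldolase, lay at 28.7 to 412 CPM (median 126) and 37.4 to 151 CPM (median 60.1), with a log2 fold change of -1.31 ± 0.54 (adjusted p = 0.0512). It passed without f/wt 1, f/wt 2 and 3, f/wt 5, f/wt 8 or Δm/wt 4 (-1.49, -1.47, -1.50, -1.58 and -1.55) and with DESeq2 (-1.35). It also passed with library totals (-1.67), median-of-ratios size factors (-1.35) and without the filter (-1.50). Tpi1, triose phosphate isomerase, lay at 4.83 to 91.3 CPM (median 35.6) and 38.9 to 178 CPM (median 64.7), with a log2 fold change of 0.72 ± 0.55 (adjusted p = 0.289). It passed relative to the reference genes (1.63). Among the hexokinase and phosphofructokinase genes, which hold the entry and the committed step, none of Hk1, Pfkl, Pfkm and Pfkp passed. Hk1, Pfkl and Pfkm had low counts, with a highest value of 13.4 CPM. Pfkp lay at 10.1 to 72.9 CPM in f/wt and 0.209 to 42.1 CPM in Δm/wt. Its log2 fold change was -1.29 ± 0.69 (edgeR, adjusted p = 0.131), and it overlaps exons of Pitrm1 by 748 bases. Hk2 was too low to be tested, with a highest value of 8.96 CPM. Eno1 (enolase) had 0 counts in all 16 libraries, and 72.2% of its windows also occur in other genes, including Eno1b, which had 28 to 838 counts. Its level is therefore not known from these files.

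The 2 lactate dehydrogenase subunits went apart. Ldhb (chromosome 6, 142490249 to 142507943 in GRCm38) rose from 391 ± 126 to 2584 ± 748 CPM. The f/wt samples lay at 213 to 569 CPM (median 348) and the Δm/wt samples at 936 to 3462 CPM (median 2659.9), without overlap. All but 1 Δm/wt sample lay at 2366 CPM or higher, and the lowest was Δm/wt 5, which also had the lowest sum of oocyte markers (11753 CPM) and the highest sum of myeloid markers (2079 CPM). The log2 fold change was 2.73 ± 0.33 (adjusted p = 3.37e-06). A pseudogene, Gm5514, shares 27.0% of its windows.

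Ldha, the muscle-type subunit, lay at 30.1 to 214 CPM in f/wt (median 118) and 16.9 to 157 CPM in Δm/wt (median 29.8), with a log2 fold change of -1.16 ± 0.55 (adjusted p = 0.0875). It passed without Δm/wt 1 or 4 (-1.60 and -1.41), with DESeq2 (-1.22), with library totals (-1.49) and in embryos 4 to 8 alone (-1.84). Within each embryo the Ldha share of the Ldha and Ldhb counts ranged from 8.48 to 31.4% in f/wt and from 0.651 to 6.23% in Δm/wt. The log2 ratio of Ldha to Ldhb had a mean of -1.88 ± 0.76 (SD) among f/wt samples and -5.92 ± 1.23 in Δm/wt, a difference of -4.04 without overlap (exact two-sided permutation test, p = 3.11e-04, adjusted over 12 pairs 0.00124). Such a ratio within an embryo does not depend on the scaling. Per kb of transcript, Ldhb stood at 299.7 CPM and Ldha at 68.3 CPM in f/wt, and at 1982 and 30.5 CPM in Δm/wt; since the reads lay mostly toward 3′ ends, a level per length is only approximate.

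The genes of pyruvate entry moved in both directions. The mitochondrial pyruvate carrier is built from MPC1 and MPC2. Mpc2 (chromosome 1, 165461208 to 165481214) fell from 284 ± 167 to 44.2 ± 37.3 CPM. The f/wt samples lay at 133 to 643 CPM (median 238) and the Δm/wt samples at 8.78 to 123 CPM (median 36.6), without overlap; the log2 fold change was -2.68 ± 0.51 (adjusted p = 0.000286). Its partner Mpc1 lay at 186 to 449 CPM (median 263) and 219 to 587 CPM (median 372), with a log2 fold change of 0.45 ± 0.31 (adjusted p = 0.237); it passed only with scaling to the 3 reference genes (1.26). The log2 ratio of Mpc1 to Mpc2 had a mean of 0.11 ± 0.63 among f/wt samples and 3.49 ± 1.35 in Δm/wt, a difference of 3.38 without overlap (exact permutation test, p = 3.11e-04, adjusted 0.00124), so that Mpc1 made up 38.01 to 68.1% of their counts in f/wt and 77.2 to 98.5% in Δm/wt. Mpc1 shares 29.6% of its windows with other genes and overlaps exons of 4930506C21Rik by 480 bases.

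The pyruvate dehydrogenase complex holds a decarboxylase of PDHA1 and PDHB, the acetyltransferase DLAT and the dehydrogenase DLD. The decarboxylase genes fell. Pdhb (chromosome 14, 8165991 to 8172992) lay at 251 to 596 CPM in f/wt (median 437) and 10.2 to 88.7 CPM in Δm/wt (median 53.8), without overlap, and its mean fell from 426 ± 110 to 53.9 ± 33.0 CPM. The log2 fold change was -2.98 ± 0.44 (adjusted p = 2.91e-05). The 3 highest Δm/wt values were in embryos 1 to 3, at 84.3 to 88.7 CPM. Gm6123 shares 30.3% of its windows.

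Pdha1 (chromosome X, 160122219 to 160138336) lay at 34.9 to 66.4 CPM in f/wt (median 42.7) and 0.209 to 21.6 CPM in Δm/wt (median 11.7). The lowest value was in Δm/wt 8, and the groups did not overlap. Its log2 fold change was -2.15 ± 0.59 (adjusted p = 0.00622), and the call was lost with scaling to the reference genes (-1.54). The gene overlaps exons of Map3k15 by 603 bases. The ratio of Pdha1 to Pdhb did not pass (difference 0.71 on the log2 scale, exact permutation test, adjusted p = 0.253). Without Δm/wt 8 it passed (1.02, adjusted p = 0.0152).

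The other 2 catalytic members rose. Dlat (chromosome 9, 50634633 to 50659780) lay at 0.210 to 35.8 CPM in f/wt (median 13.5) and 51.3 to 232 CPM in Δm/wt (median 148), without overlap, and its mean rose from 14.9 ± 12.2 to 149 ± 64.1 CPM. Its change was 3.32 ± 0.66 on the log2 scale (adjusted p = 0.000481). Dld, which is shared with other keto acid complexes, lay at 0.631 to 46.0 CPM in f/wt (median 7.93) and 7.13 to 217 CPM in Δm/wt (median 36.2), with overlap and a log2 fold change of 2.22 ± 0.82 (adjusted p = 0.0333). Its call was lost without f/wt 2 and 3, f/wt 4, f/wt 5 or f/wt 6 (2.14, 2.09, 2.02 and 2.12), without Δm/wt 2 or 4 (2.09 and 1.60), and with library totals (1.95). Pcx, pyruvate carboxylase, which makes oxaloacetate, lay at 0.108 to 20.8 CPM in f/wt and 0 to 8.36 CPM in Δm/wt and did not pass (-0.67 on the log2 scale, adjusted p = 0.629, and 0.24 in the absence of f/wt 7).

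**Figure D2:**
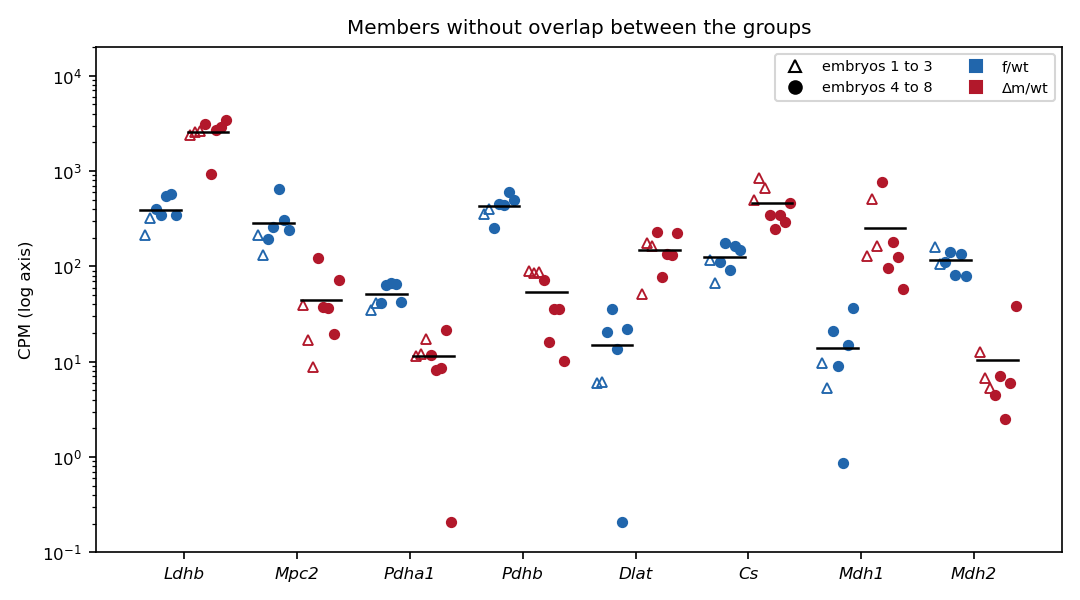
CPM (log axis) in each sample of the 8 members whose groups do not overlap; blue f/wt (7 samples), red Δm/wt (8 samples), triangles embryos 1 to 3, circles embryos 4 to 8, and black lines the group means. Ldhb, Dlat, Cs and Mdh1 are higher in Δm/wt, and Mpc2, Pdha1, Pdhb and Mdh2 lower; Δm/wt 5 stands low for Ldhb and Δm/wt 8 for Pdha1.

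Among the citrate cycle genes, 6 rose. Cs (chromosome 10, 128337832 to 128362479), citrate synthase, which joins acetyl-CoA to oxaloacetate, rose from 125 ± 39.3 to 461 ± 201 CPM. The f/wt samples lay at 67.5 to 176 CPM (median 118) and the Δm/wt samples at 245 to 841 CPM (median 405), without overlap. Its log2 fold change was 1.88 ± 0.35 (adjusted p = 0.000224). The summed CPM of the 15 citrate cycle members lay at 686 to 921 CPM in f/wt and 1019 to 2673 CPM in Δm/wt, without overlap, and that of the 14 glycolysis members at 546 to 2492 CPM and 633 to 1728 CPM, with overlap. These sums follow their most abundant members and are given as a description.

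The NAD-dependent isocitrate dehydrogenase is built from IDH3A, the catalytic subunit, and from IDH3B and IDH3G. Idh3a lay at 26.8 to 96.8 CPM in f/wt (median 47.3) and 44.2 to 415 CPM in Δm/wt (median 94.3), with Δm/wt 4 highest and the groups overlapping. Its log2 fold change was 1.28 ± 0.49 (adjusted p = 0.0377), and the call was lost without f/wt 2 and 3, f/wt 4, f/wt 5, f/wt 6 or f/wt 7 (1.16, 1.24, 1.25, 1.26 and 1.16), without Δm/wt 4 or 8 (0.75 and 1.23), with library totals (0.90), and without the filter (1.12). Idh3g lay at 38.5 to 98.6 CPM in f/wt (median 83.9) and 4.64 to 148 CPM in Δm/wt (median 19.5), where Δm/wt 8 held the highest value. Its log2 fold change was -1.20 ± 0.61 (adjusted p = 0.115). It passed without Δm/wt 8 (-2.21), with library totals (-1.68), with limma-voom (-2.13) and with the replicate block (-2.01). It also passed in embryos 1 to 3 alone (-1.92) and in Δm/wt 1 to 3 against all f/wt (-2.23).

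Idh3b was low, at 6.20 to 78.5 CPM in f/wt (median 14.7) and 0 to 30.0 CPM in Δm/wt (median 3.45), with a log2 fold change of -1.89 (adjusted p = 0.113). It passed without Δm/wt 4 (-2.86), with limma-voom (-3.10) and in embryos 1 to 3 alone (-4.26). Within embryos, the log2 ratio of Idh3a to Idh3b had a mean of 1.46 ± 1.58 among f/wt samples and 5.28 ± 2.29 in Δm/wt (difference 3.82, exact permutation test, p = 0.00124, adjusted 0.00373; 3.23 without Δm/wt 8). That of Idh3a to Idh3g was -0.55 ± 1.12 and 2.47 ± 1.54 (difference 3.02, exact permutation test, p = 0.00171, adjusted 0.00410). Both ratios overlapped between the groups, and neither passed in embryos 4 to 8 alone (2.79 and 3.16).

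The 2-oxoglutarate dehydrogenase complex showed a rise of its succinyltransferase gene. Dlst lay at 0.248 to 27.5 CPM in f/wt (median 8.64) and 10.2 to 77.7 CPM in Δm/wt (median 51.4), with a log2 fold change of 1.89 ± 0.70 (adjusted p = 0.0321). The call was lost without f/wt 1, f/wt 2 and 3, f/wt 8 or Δm/wt 1 (1.82, 1.78, 1.56 and 1.74), with library totals (1.48), and without the filter (1.74). Ogdh, the decarboxylase of the same complex, lay at 62.3 to 186 CPM (median 137) and 30.8 to 123 CPM (median 55.6), with a log2 fold change of -0.75 ± 0.41 (adjusted p = 0.142); it passed with library totals (-1.19), and its sign turned with scaling to the reference genes (0.10).

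Succinyl-CoA ligase makes succinate, with the beta subunit SUCLG2 using GDP and SUCLA2 using ADP. Sucla2 lay at 25.4 to 230 CPM in f/wt (median 39.3) and 38.6 to 525.7 CPM in Δm/wt (median 265). The overlap came from f/wt 8, at 230 CPM, and Δm/wt 1, at 38.6 CPM; the log2 fold change was 2.09 ± 0.54 (adjusted p = 0.00379). Sucla2 did not pass in embryos 1 to 3 alone (2.44) and in Δm/wt 1 to 3 against all f/wt (1.64). Suclg2 lay at 22.1 to 243 CPM in f/wt (median 84.3) and 86.1 to 596 CPM in Δm/wt (median 213), with a log2 fold change of 1.29 ± 0.51 (adjusted p = 0.0455). Its call was lost without f/wt 1, f/wt 2 and 3, f/wt 4, f/wt 7 or f/wt 8 (1.15, 1.12, 1.26, 1.14 and 1.13), without Δm/wt 1, 3, 4, 5 or 7 (1.32, 1.23, 1.32, 1.32 and 0.95), with library totals (1.02), and without the filter (1.17). The pseudogene Gm15163 shares 21.8% of the Suclg2 windows. The ratio of Suclg2 to Sucla2 did not pass (difference -0.73, exact permutation test, adjusted p = 0.401). The alpha subunit gene Suclg1 lay at 0 to 14.7 CPM in f/wt and 0.418 to 29.3 CPM in Δm/wt and did not pass (2.32, adjusted p = 0.142). It passed without f/wt 8, its highest f/wt sample (5.19), with limma-voom (4.56), relative to the reference genes (3.69) and in embryos 1 to 3 alone (4.40).

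Malate dehydrogenase showed the largest opposite changes of all members. Mdh1 (chromosome 11, 21556692 to 21571934), the cytosolic isozyme, rose from 13.9 ± 11.8 to 253 ± 249 CPM. The f/wt samples lay at 0.867 to 36.2 CPM (median 9.63) and the Δm/wt samples at 57.9 to 765 CPM (median 145), without overlap; the log2 fold change was 4.19 ± 0.71 (adjusted p = 0.000106). Mdh2 (chromosome 5, 135778649 to 135790386), the mitochondrial isozyme, fell from 116 ± 30.3 to 10.3 ± 11.6 CPM. Its f/wt samples lay at 79.1 to 160 CPM (median 112) and its Δm/wt samples at 2.50 to 38.04 CPM (median 6.37), where Δm/wt 8 was highest, without overlap. It changed by -3.50 ± 0.55 on the log2 scale (adjusted p = 5.42e-05), and -4.19 without Δm/wt 8.

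In every f/wt embryo Mdh2 counts, uncorrected for length, exceeded Mdh1 counts, and in every Δm/wt embryo the reverse held. The log2 ratio of Mdh1 to Mdh2 had a mean of -3.59 ± 1.60 among f/wt samples (range -6.22 to -1.12) and 4.55 ± 2.09 in Δm/wt (range 0.60 to 7.34), a difference of 8.14 (exact permutation test, p = 3.11e-04, adjusted 0.00124). Each gene alone already separated the groups, in opposite directions, so the separation of their ratio, and with it this p-value, was fixed beforehand. The test adds no support to the 2 calls. Mdh1 made up 1.05 to 31.4% of their summed counts in f/wt and 60.3 to 99.4% in Δm/wt. Per kb of transcript, Mdh1 stood at 6.54 CPM and Mdh2 at 80.0 CPM in f/wt, and at 119 and 7.09 CPM in Δm/wt. Neither gene shares 50-base windows with another gene, and Mdh1 overlaps exons of Wdpcp by 52 bases. Leaving out each sample in turn gave differences of the ratio from 7.70 to 8.70.

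The remaining 7 pairs did not pass. On the log2 scale the differences were -1.93 for Pfkl to Pfkm, 2.37 for Idh1 to Idh2, 0.71 for Pdha1 to Pdhb, 1.23 for Pfkl to Pfkp, -0.73 for Suclg2 to Sucla2, -0.77 for Hk1 to Hk2 and 0.14 for Aldoa to Aldoc (exact permutation tests, adjusted p from 0.138 to 0.898). The first of these passed without f/wt 4 (-2.41, adjusted p = 0.0453). The ratio of Hk1 to Hk2 ran from -5.27 to 5.70 within f/wt alone.

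**Figure D3:**
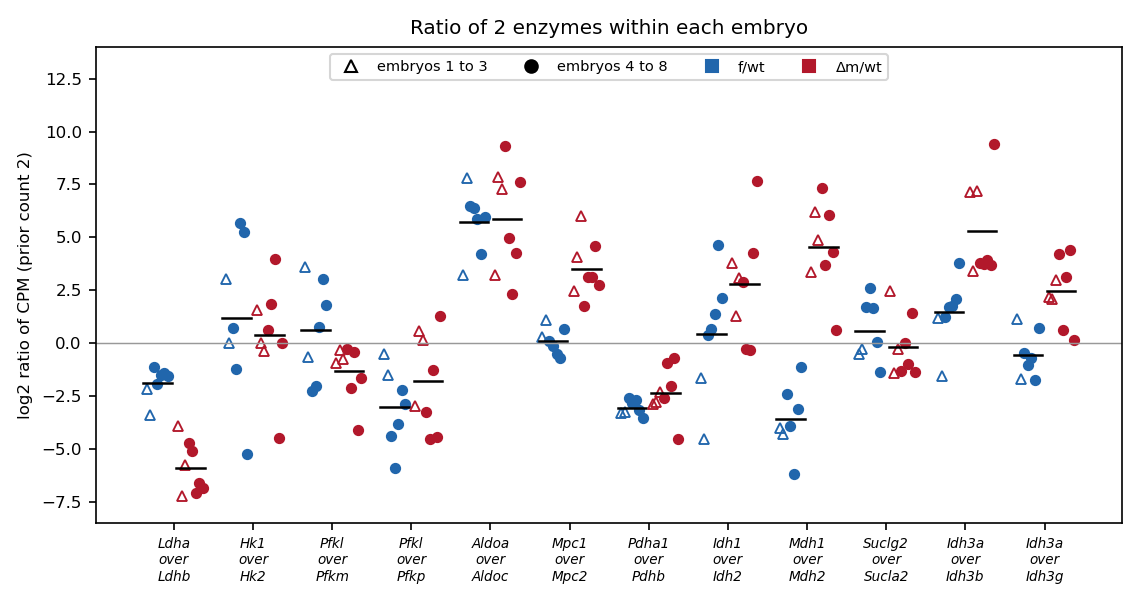
Log2 ratio of CPM (prior count of 2) between 2 enzymes within each embryo, for the 12 pairs; blue f/wt, red Δm/wt, triangles embryos 1 to 3, circles embryos 4 to 8, and black lines the group means. The groups separate for Ldha to Ldhb, Mpc1 to Mpc2 and Mdh1 to Mdh2, where the sign of the last differs between all f/wt and all Δm/wt samples.

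The other members were less abundant. Of the 16 members under 50 CPM in both groups, 14 were tested, and 1 of these, Dlst, was called. The log2 fold changes ran from -1.89 (Idh3b) to 2.32 (Suclg1). Gpi1 (phosphoglucose isomerase), Aldoc, Aco1 (the cytosolic aconitase), Idh1 and Idh2 (the NADP-dependent enzymes) and Fh1 (fumarase) did not pass, at adjusted p between 0.250 and 0.637. Their highest group mean was 45.5 CPM, for Fh1 in Δm/wt. Idh2 lay at 0 to 50.4 CPM in f/wt and 0 to 15.5 CPM in Δm/wt, and it passed in embryos 1 to 3 alone (-6.27).

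The embryos fell into sets that the group labels do not describe. The study's table of read numbers separates embryos 1 and 2, embryo 3 and embryos 4 to 8, which are not labelled as batches. Glycolysis members summed to 546 to 614 CPM in f/wt 1 and the summed f/wt 2 and 3, against 1271 to 2492 CPM in f/wt 4 to 8. In Δm/wt the sums were 633 to 944 CPM in embryos 1 to 3 and 707 to 1728 CPM in embryos 4 to 8. The two-cell markers lay at 232 to 451 CPM in f/wt 1 to 3 and 716 to 2101 CPM in f/wt 4 to 8, and their part in these sums was not tested.

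**Figure D4:**
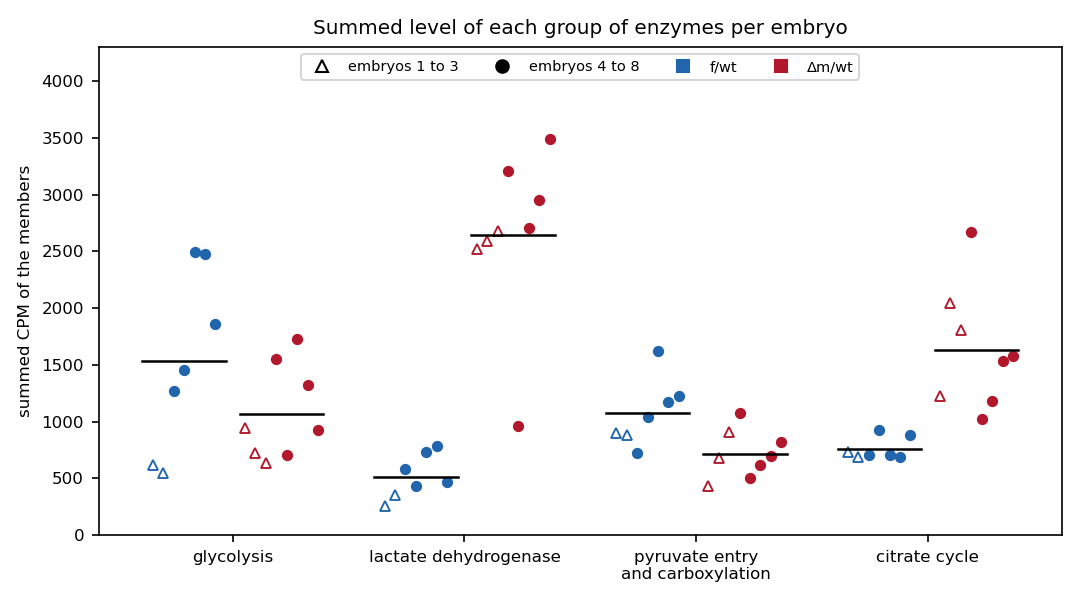
Summed CPM of the members of each role in each sample; blue f/wt (7 samples), red Δm/wt (8 samples), triangles embryos 1 to 3, circles embryos 4 to 8, and black lines the group means. Lactate dehydrogenase and citrate cycle sums do not overlap between the groups, and f/wt 1 to 3 have the lowest glycolysis sums (546 and 614 CPM).

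Effects within the sets were compared because of this. In embryos 1 to 3, 7 members rose and 6 fell (15.1% and 17.2% of all genes did), and 9 of the 16 calls held. Those of Pdha1 (-1.47), Dld (1.60) and Idh3a (0.66) were lost there, beside those of Gapdh, Pgam1, Pkm and Sucla2. In embryos 4 to 8, 6 rose and 6 fell (12.9% and 15.2% of all genes), and 11 of the 16 held, without those of Pgam1, Dld (2.51), Idh3a (1.56), Dlst (1.36) and Suclg2 (1.06). In Δm/wt 1 to 3 against all f/wt the calls of Pkm (-1.57), Dld (1.82), Idh3a (0.63), Dlst (2.22) and Suclg2 (1.02) were lost as well as those of Gapdh, Pgam1 and Sucla2. Pgk1 had a log2 fold change of 1.19 in embryos 1 to 3 and -1.09 in embryos 4 to 8, Ldha of 0.98 and -1.84, Pkm of 0.39 and -1.48, Idh2 of -6.27 and 0.26, and Cs of 2.84 and 1.30. Pgk1 passed in neither set, Idh2 only in embryos 1 to 3, Ldha and Pkm only in embryos 4 to 8, and Cs in both. The test of the difference between the sets passed in 0 of 11344 genes after adjustment in edgeR, with an unadjusted p under 0.05 in 703 (6.20%) of all genes and in 5 of 36 members, which are the 5 genes just named (Pgk1, unadjusted p = 0.00555, adjusted p = 0.684). Ldhb, Mpc2, Pdhb, Dlat, Cs, Mdh1 and Mdh2 were called in both sets and in all 27 alternative settings.

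**Figure D5:**
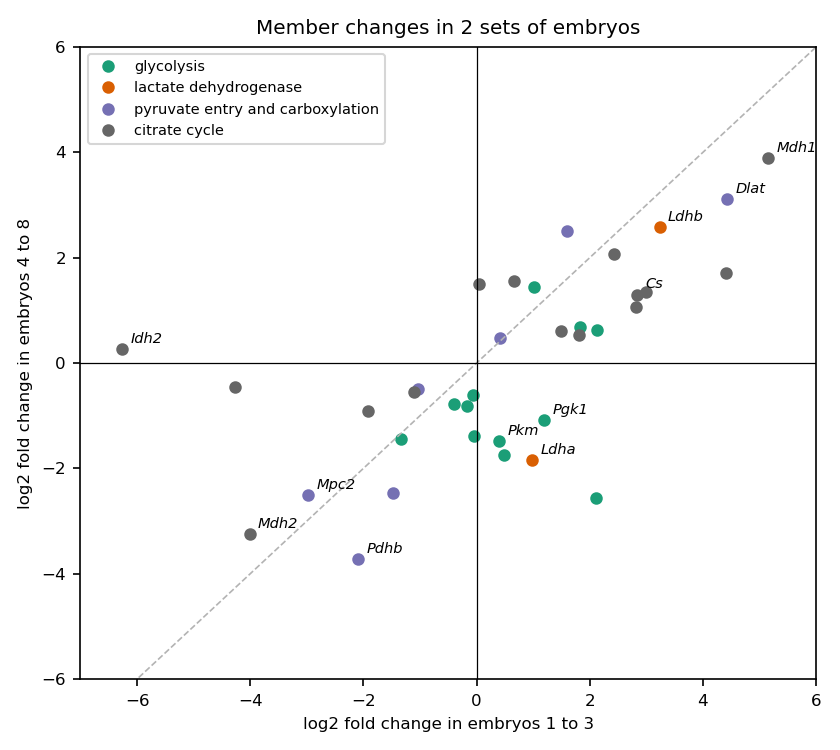
Log2 fold change of Δm/wt over f/wt in embryos 1 to 3 (horizontal axis) and in embryos 4 to 8 (vertical axis) for the 36 members tested, coloured by role; the dashed line marks equal changes. Mdh1, Dlat and Ldhb lie high in both sets and Mdh2, Pdhb and Mpc2 low, whereas Pgk1, Pkm and Ldha are above 0 in embryos 1 to 3 and below 0 in embryos 4 to 8.

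Genes next to these pathways were counted in the same test, in which 21.9% of all genes rose and 22.8% fell, and again in Δm/wt 1 to 3 against all f/wt (11.3% and 17.8%). Of 19 other isozymes and subunits, 9 were tested, 4 rose and 0 fell (3 and 0 without Δm/wt 4 to 8). Sdha, the flavoprotein of succinate dehydrogenase, rose from 44.8 to 437 CPM (3.29 on the log2 scale). Pdhx, which binds DLD in the pyruvate dehydrogenase complex, rose from 35.1 to 220 CPM (2.65). Sdhc, a membrane anchor of succinate dehydrogenase, did not pass (adjusted p = 0.0746). Thus the complex that feeds the cycle had 3 further genes higher, Dlat, Dld and Pdhx, beside its 2 lower decarboxylase genes. Of these, Dld overlapped between the groups, and its call was lost in each set of embryos alone and in several other settings. The Pdha1 call was lost in embryos 1 to 3 alone and relative to the reference genes.

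Of 19 regulators and bypass enzymes, 18 were listed, 11 tested, 3 rose and 3 fell (3 and 1 without Δm/wt 4 to 8). Fbp1, the gluconeogenic fructose bisphosphatase, rose from 0.326 to 36.1 CPM (6.62 on the log2 scale), and Me1, the cytosolic malic enzyme, from 138 to 490 CPM (1.83). Pfkfb3, which makes the activator of phosphofructokinase, fell from 72.6 to 10.5 CPM (-2.79). Pdk1, a kinase that inhibits pyruvate dehydrogenase, did not pass (adjusted p = 0.0863). Another such kinase gene, Pdk3, named after its values were seen, rose from 65.8 to 165 CPM (1.32). Of 9 transporters of glucose, lactate, pyruvate, citrate or dicarboxylates, 6 were tested, 0 rose and 3 fell (0 and 1 without Δm/wt 4 to 8, where Slc2a3 was not called), among them the glucose transporter Slc2a3, from 33.1 to 2.72 CPM (-3.60); Bsg, a chaperone of lactate carriers, did not pass (adjusted p = 0.686).

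All 5 genes of the malate-aspartate shuttle other than the malate dehydrogenases were tested, and 2 rose and 0 fell (1 and 0 without Δm/wt 4 to 8, where Got2 was not called). Slc25a13, an aspartate-glutamate carrier, rose from 4.22 to 54.7 CPM (3.70 on the log2 scale) and Got2, the mitochondrial aspartate aminotransferase, from 24.7 to 87.4 CPM (1.83), while its cytosolic counterpart Got1 did not pass (adjusted p = 0.135). Of 7 pentose phosphate genes 5 were tested, and 1 rose and 1 fell (2 and 1 without Δm/wt 4 to 8). G6pdx, which opens that pathway, rose from 132 to 964 CPM (2.86), and Pgd, which acts 2 steps later, fell from 139 to 9.42 CPM (-3.88), both without overlap between the groups. Rpia did not pass (adjusted p = 0.150).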

How the data were processed

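Single two-cell embryos were profiled by RNA-seq, 8 f/wt and 8 Δm/wt. The authors made oligo-dT cDNA from each embryo, which favours 3′ ends, and sequenced it; reads were aligned to mm10 with TopHat2 (2.0.6), and uniquely placed reads were counted over RefSeq genes with HTSeq (0.6.1), so the deposited values are raw counts per gene. The strand setting is not given in the sources used here, and the reads carry no molecular identifiers. The deposited repeat counts were not used.

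Genes were compared with the quasi-likelihood test of edgeR (4.0.16, R 4.3.3) and TMM factors, with Benjamini-Hochberg adjustment over all genes tested and a threshold of 0.05. As in the study, only the 60% of genes highest in summed counts were tested (11344). CPM values are after TMM scaling, and log2 values used a prior count of 2. Ratios within embryos used exact two-sided permutation tests over 6435 splits, adjusted over 12 pairs. They reuse the counts of the gene tests and are not separate evidence for the genes. Libraries f/wt 2 and 3 were summed after their counts were seen. Alternatives were library totals, other size factors, reference genes, no filter, DESeq2 (1.42.0), limma-voom (limma 3.58.1), leaving out each sample and the replicate block. Others were f/wt 2 and 3 kept separate, and sets of embryos alone or as a term in the fit. Embryos 1 to 3 alone, Δm/wt 1 to 3 against all f/wt, and the test of the difference between sets were chosen after seeing the data. The edgeR test was checked on counts simulated from its own fitted model. Recovered changes had the right sign, and larger changes were recovered more often. Such counts do not show its error rate in these embryos. The permutation test was checked on separated values and on simulated normal values.

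The members and lists were chosen with earlier results of these data known. All members may be named, with values in every group for those of at least 50 CPM in either group or without overlap. For neighbouring lists, up to 3 passing genes of at least 10 CPM with the largest change and the most abundant gene that did not pass are named. The result of 1 gene of these lists is not reported here. Transcript lengths, positions and 50-base windows shared with other genes came from GENCODE M21, and promoters from RefSeq GRCm38.p6.

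Embryo numbers were compared between groups by the correlation of deviations from the group means. For the 6 numbers with a sample of both groups it ran from -0.07 to 0.09, and 2 of 6 correlated best with their own number, so the numbers were not taken to pair the samples.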

Additional observations from a re-analysis of the deposited data

Results flagged for a closer look

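Samples that stood apart from the rest of their group were looked for in 98 sets of values (groups of 7 or 8 samples); the lowest or highest sample stood apart in 9, and chance gives about 1 in 20. Values are log2 CPM.

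Library Δm/wt 8 was lowest for Pfkp (-1.16), Pkm (5.21) and Pdha1 (-1.16), against the nearest samples at 2.45, 7.07 and 3.07. Δm/wt 5 was lowest for Ldhb (9.87, nearest 11.21). Sucla2 was low in Δm/wt 1 (5.28, nearest 7.73) and high in f/wt 8 (7.84, nearest 5.86), and f/wt 8 was also highest for Suclg1 (3.90, nearest 0.46). Dlat was lowest in f/wt 7 (-1.15, nearest 2.63) and Aco1 in f/wt 6 (-0.026, nearest 2.60). No cause was tested.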

How the results depend on the processing

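Of the 16 called members, 7 kept their call in all 27 alternatives, 8 under every scaling and 10 with each sample left out in turn. The number of members that rose was 5 with library totals, 6 without the filter, 6 in embryos 4 to 8, 4 in Δm/wt 1 to 3 against all f/wt, and 6 to 9 with 1 sample left out. The number that fell was 11 with library totals, 3 with reference genes, and 5 to 9 with 1 sample left out. Of all genes, 1446 fell with reference genes, 1466 rose in embryos 4 to 8 and 1283 rose in Δm/wt 1 to 3 against all f/wt, and with 1 sample left out 2151 to 2455 rose and 2336 to 2716 fell. Without the filter, which leaves more genes in the test, 3406 of all genes rose. Smaller sets hold fewer samples.

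With the replicate block, 10 members rose and 6 fell, of 2375 and 2695 genes, and the calls of Pkm (-0.94) and Idh3a (1.09) were lost, the ratio of Aldoa to Aldoc turned to -0.11, and Idh3g (-2.01) and Suclg1 (5.43) passed; the numbers did not pair the samples.

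Signs turned with reference genes for Gpi1 (0.068), Pfkl (0.19), Pgk1 (0.028), Ogdh (0.10) and Pcx (0.10); in embryos 1 to 3 for Hk1 (2.10), Pfkp (0.48), Pgk1 (1.19), Pkm (0.39) and Ldha (0.98); in embryos 4 to 8 for Idh2 (0.26); in Δm/wt 1 to 3 against all f/wt for Pfkl (0.36) and Idh1 (-1.28); without f/wt 1 or 7 for Pfkl (0.12 and 0.071), and without f/wt 7 for Aldoc (0.23) and Pcx (0.24). With 1 sample left out these ran from -0.50 to 0.12, from -1.88 to 0.23 and from -1.01 to 0.24. Of these genes only Pkm was called.

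The difference in the ratio of Aldoa to Aldoc was -0.10 in embryos 4 to 8 and -0.12 with f/wt 2 and 3 separate, and ran from -0.35 to 0.65 with 1 sample left out. That of Pfkl to Pfkm ran from -2.41 to -1.43 and that of Pdha1 to Pdhb from 0.47 to 1.02. Idh3a to Idh3b (2.79) and Idh3a to Idh3g (3.16) did not pass in embryos 4 to 8, and Idh1 to Idh2 was 5.81 in embryos 1 to 3. The cause was not tested.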
